A study of Homo sapiens with 6 samples.

Results

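The insulin-like growth factor (IGF) system was followed through 10 genes: the ligands IGF1 and IGF2, the receptors IGF1R and IGF2R, and the 6 binding proteins IGFBP1 to IGFBP6. They were taken by gene symbol from the 44591 genes listed in the deposited tables, and all 10 were found. In A2780 cells treated with r-CRMP2, IGFBP3 rose about 4.01-fold over untreated cells and IGFBP6 rose 2.40-fold, while IGF2R fell to 0.701 of its untreated level. These values are under TMM scaling, as log2 fold changes 2.004, 1.26 and -0.51. With scaling to library size alone they were 1.69, 0.95 and -0.82. IGF1R differed by less than the spread between libraries after TMM scaling, but was lower with scaling to library size alone. Both ligands had low counts (27 to 60 per library for IGF1, 10 to 18 for IGF2), and IGFBP1 had no count in any library.

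IGF1 and IGF2 are secreted growth factors that signal through IGF1R, a receptor tyrosine kinase closely related to the insulin receptor. IGF2R, also known as the cation-independent mannose 6-phosphate receptor, carries no kinase, takes IGF2 to lysosomes for degradation and sorts lysosomal enzymes. The IGF binding proteins hold most extracellular IGF, and they limit or prolong its access to IGF1R. In ovarian cancer the IGF axis has been studied as an autocrine growth circuit, and IGFBP1 and IGFBP3 are also known as genes that respond to low oxygen.

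The libraries came from A2780, an established human ovarian cancer cell line of wild-type genotype, kept in DMEM with serum. The untreated group held 3 libraries, and the r-CRMP2 group held 3 libraries from cells given human recombinant CRMP2 protein at 40 ng/ml for 48 h in the medium. CRMP2 (collapsin response mediator protein-2, gene DPYSL2) is a microtubule-associated protein that the study examined as a factor secreted by cancer-associated fibroblasts, and the comparison asks which transcripts differ once it is added. The labels name no buffer or other-protein control, so CRMP2 and anything else in the preparation cannot be told apart, and serum in the medium is itself a source of IGFs. Nothing in the labels says that the 3 libraries of a group came from separate cultures, so the p-values measure the spread between these libraries, which may be technical.

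Between 21888530 and 25711353 reads were counted per library, and replicate libraries differed by more than sampling noise (chi-square per degree of freedom between 3.62 and 10.3). Of 10 genes that mark ovarian epithelial cancer cells, KRT7, KRT8, KRT18 and MSLN were abundant. EPCAM (6.30 TPM in untreated libraries), PAX8 (2.44), MUC16 (2.38) and KRT19 (2.32) were low, and WT1 and CDH1 stayed under 10 counts in every library, so the label rests on some of its markers and not on others. Over those 10 markers the summed level was 4447 to 4710.05 TPM in untreated and 3763 to 4087 TPM in r-CRMP2 libraries. Fibroblast markers summed to 279.8 to 319.6 TPM in untreated and 199.6 to 214 TPM in r-CRMP2 libraries, with FAP under 10 counts throughout, and blood and endothelial markers summed to 4.29 to 4.67 TPM and 0.807 to 1.27 TPM. These TPM sums were lower with r-CRMP2, but how many single genes rose or fell depended on the scaling. Under TMM the median log2 fold change was 0.07 over the 8 epithelial markers tested (2 rose, 2 fell). It was 0.19 over the 10 fibroblast markers tested (4 rose, 3 fell), where 28.2% of all genes rose and 30.1% fell. With library size alone the medians were -0.24 (1 rose, 4 fell) and -0.12 (0 rose, 4 fell). For all genes the median was then -0.34, with 13.4% rising and 52.1% falling. COL1A1 made up the largest part of the fibroblast sum (172 TPM in untreated and 104 TPM in r-CRMP2 libraries). COL1A1, PDGFRB and POSTN fell under both scalings. Over the 3 blood and endothelial markers tested the median was -1.41 under TMM (0 rose, 1 fell) and -1.72 with library size alone (0 rose, 2 fell). CDH5 was called down under both, at -1.96 and -2.27. It went from 3.11 TPM in untreated to 0.635 TPM in r-CRMP2 libraries, as means. Whether these differences play a part in the results was not tested. Being bulk RNA, the values cannot tell fewer cells of a kind from less RNA per cell.

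Levels of different genes were compared in TPM, the deposited value scaled for gene length and library total. In untreated cells the order was IGFBP3 (596 ± 81.2 TPM), IGF1R (92.8 ± 4.13), IGFBP2 (76.1 ± 1.06), IGFBP4 (63.1 ± 2.39), IGF2R (52.8 ± 0.561), IGFBP5 (25.7 ± 1.90), IGFBP6 (22.8 ± 4.46), IGF1 (0.655 ± 0.0288) and IGF2 (0.200 ± 0.0538), as mean ± SD with n = 3. The untreated libraries of IGFBP5 and IGFBP6 overlapped, and those of the other neighbours did not. With r-CRMP2 the order became IGFBP3 (1903 ± 135 TPM), IGFBP4 (78.6 ± 3.90), IGFBP2 (77.8 ± 8.48), IGF1R (73.9 ± 10.9), IGFBP6 (43.5 ± 2.36), IGF2R (29.6 ± 3.19), IGFBP5 (24.7 ± 2.62), IGF1 (0.429 ± 0.102) and IGF2 (0.236 ± 0.00345). Here the libraries of IGFBP4, IGFBP2 and IGF1R overlapped, as did those of IGF2R and IGFBP5, so these neighbours did not differ beyond their spread.

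**Figure D1:**
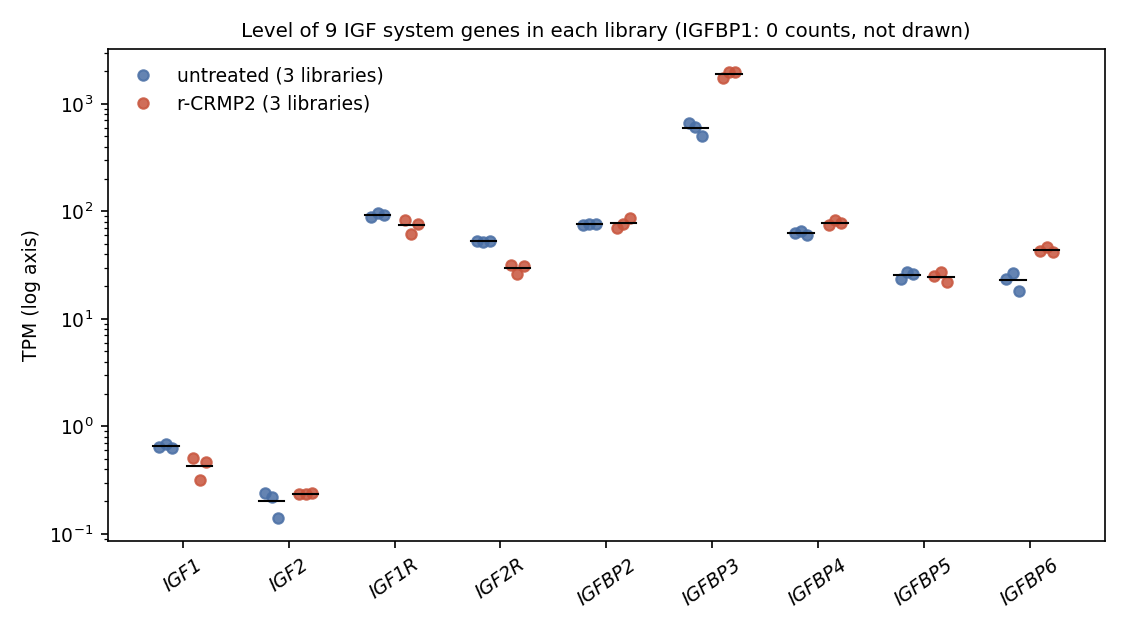
Each point is 1 library, and black lines are group means of the TPM value on a log axis, with the 3 untreated libraries in blue and the 3 r-CRMP2 libraries in red. IGFBP3 lies above every other gene in both groups and shifts from 507 to 667 TPM up to 1748 to 1994 TPM, while IGF1 and IGF2 stay under 1 TPM.

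Groups were compared on the counts by a quasi-likelihood test in edgeR, with p-values adjusted by Benjamini-Hochberg over the 16222 genes that passed a filter on low counts, and SE is the standard error of a log2 fold change from the spread between libraries. The values given per library are normalized CPM, the counts scaled to library size and TMM factor, a level that is not divided by gene length. A gene is said to be called where its adjusted p was under 0.05 and its log2 fold change over 1 in size, and to have risen or fallen where the adjusted p alone passed. Of the 10 genes, 9 passed the filter. Of these, 2 were called upregulated, IGFBP3 and IGFBP6, where 5.12% of all genes tested were called up, 8.86% down and 14.0% either way. At the adjusted p threshold alone 5 of the 9 rose and 1 fell, where 28.2% of all genes rose, 30.1% fell and 58.2% did either. Scaling mattered for small differences: over all genes the median log2 fold change lay at -0.03 under TMM, and at -0.34 when counts were scaled to library size alone, so each value is also read against that median.

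The ligands had low counts, IGF2 more so than IGF1. IGF1 (chromosome 12, 102789645 to 102874423, minus strand, deposited positions, for which the labels name hg19) had 60, 55 and 57 counts in untreated libraries and 43, 27 and 44 counts with r-CRMP2. As normalized CPM this was 2.16, 2.24 and 2.08 against 2.01, 1.36 and 1.92, so the groups did not overlap, yet the difference did not pass the test (log2 fold change -0.28, SE 0.17, edgeR adjusted p = 0.316). With library size alone it did (-0.59, edgeR adjusted p = 0.0360).

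IGF2 (chromosome 11, 2150342 to 2170833, minus strand) had 18, 14 and 10 counts in untreated libraries and 16, 16 and 18 counts with r-CRMP2 (log2 fold change 0.56, SE 0.21, edgeR adjusted p = 0.216). INS-IGF2, a read-through transcript over the same bases, was listed with 18, 13 and 10 counts and 15, 16 and 16 counts, nearly the same numbers, so the reads of the pair cannot be told apart. Counts of this size leave any change in IGF2 uncertain.

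The neighbouring imprinted RNA H19, a non-coding transcript on the same chromosome, was among the abundant RNAs. It measured 3011, 2116 and 1690.0 normalized CPM in untreated libraries and 4465, 4786 and 4903 with r-CRMP2, with no overlap between groups. Its log2 fold change was 1.05 (SE 0.25, edgeR adjusted p = 1.15e-06), and fell under the fold threshold without untreated replicate 3 (0.88) and with library size alone (0.75). H19 overlaps HOTS on the other strand, which was listed with 31870, 17996 and 17074 counts in untreated and 34815, 35930 and 40826 in r-CRMP2 libraries. As the kit named in the methods does not mark strand, H19 and HOTS reads cannot be told apart where they overlap.

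The receptors parted. IGF1R (chromosome 15, 99191768 to 99507759, plus strand) measured 452, 479 and 467 normalized CPM in untreated libraries and 506, 412 and 473 with r-CRMP2. Untreated libraries lay inside the range of the treated ones, and the log2 fold change was -0.01 (SE 0.09, edgeR adjusted p = 0.941). It was -0.32 with library size alone (edgeR adjusted p = 0.00125), yet against the median gene it stood at 0.02 under either scaling. In TPM, a share of all transcripts, the groups did not overlap, at 88.5, 96.7 and 93.4 in untreated and 83.8, 62.15 and 75.9 in r-CRMP2 libraries, so whether IGF1R is read as level or lower depends on the scale. IRAIN, an antisense transcript at the start of IGF1R, took 423 to 673 counts per library beside 8144 to 12779 for IGF1R. Without strand, reads where the 2 genes overlap may belong to either.

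IGF2R (chromosome 6, 160390131 to 160532536, plus strand) measured 311, 297 and 305 normalized CPM in untreated libraries and 222, 198 and 221 with r-CRMP2. All 3 treated libraries lay below all 3 untreated ones, as did 33.3% of all genes tested. The log2 fold change was -0.51 (SE 0.06, edgeR adjusted p = 1.20e-06), short of the fold threshold. With library size alone it was -0.82, and relative to the median gene -0.49 and -0.48 under the 2 scalings. The TPM of IGF1R per TPM of IGF2R went from 1.67, 1.85 and 1.76 in untreated libraries to 2.62, 2.39 and 2.46 with r-CRMP2. That ratio does not depend on scaling, and its groups did not overlap. It was formed after both genes' values were seen, so it is given with no test.

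Genes that work with IGF2R in mannose 6-phosphate sorting were read from a fixed list. All 13 were tested, and their log2 fold changes lay between -0.27 and 0.59 with a median of 0.01, beside -0.03 for all genes. At the adjusted p threshold alone 3 rose and 3 fell under TMM, beside 28.2% and 30.1% of all genes, but 1 rose and 11 fell with library size alone, beside 13.4% and 52.1% of all genes, so no direction is given for the list. M6PR, the smaller cation-dependent receptor of the same ligands, had a log2 fold change of 0.15 (SE 0.04, edgeR adjusted p = 0.0497), but -0.16 with library size alone, so no direction can be given for it. IGF2R lay below all 13 of these genes in log2 fold change.

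All 5 detected binding proteins rose under TMM, but to different extents, and with library size alone IGFBP2 did not pass the test and IGFBP5 changed sign. IGFBP3 (chromosome 7, 45951844 to 45960871, minus strand), the main carrier of IGF in blood, measured 732, 654 and 546 normalized CPM in untreated libraries and 2271, 2802 and 2673 with r-CRMP2. Even the lowest treated library was over 3 times the highest untreated one. Its mean went from 644 ± 93.6 to 2582 ± 277 normalized CPM (SD, 3 libraries each), log2 fold change 2.004 (SE 0.15, edgeR adjusted p = 3.40e-12). Only 1.10% of the genes tested had a log2 fold change as high or higher, and with library size alone that of IGFBP3 was 1.69.

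IGFBP6 (chromosome 12, 53491436 to 53496128, plus strand), which prefers IGF2 over IGF1, measured 9.53, 10.5 and 7.09 normalized CPM in untreated libraries and 20.5, 24.1 and 20.4 with r-CRMP2. The groups did not overlap. Its log2 fold change was 1.26 (SE 0.19, edgeR adjusted p = 6.06e-08), and 3.32% of all genes reached that value. With library size alone it was 0.95, just under the fold threshold (edgeR adjusted p = 4.76e-06).

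IGFBP4 (chromosome 17, 38599676 to 38613982, plus strand), an inhibitor of IGF action that the protease PAPPA cleaves, measured 58.7, 59.4 and 55.5 normalized CPM in untreated libraries and 82.5, 99.8 and 89.7 with r-CRMP2. It rose by a log2 fold change of 0.65 (SE 0.09, edgeR adjusted p = 3.39e-07), and by 0.33 with library size alone (edgeR adjusted p = 0.000415).

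IGFBP2 and IGFBP5 are neighbours on chromosome 2 (217497551 to 217529159, plus strand, and 217536828 to 217560272, minus strand). IGFBP2 measured 62.7, 62.6 and 62.6 normalized CPM in untreated libraries and 69.6, 82.8 and 88.9 with r-CRMP2 (log2 fold change 0.36, SE 0.10, edgeR adjusted p = 0.000548). IGFBP5 measured 61.7, 69.5 and 66.5 against 76.7, 92.2 and 70.1 (log2 fold change 0.27, SE 0.13, edgeR adjusted p = 0.00953). Neither pair of groups overlapped on this scale, but the TPM of both genes did overlap. With library size alone IGFBP2 stood at 0.05 and IGFBP5 at -0.04, neither past the test, so no direction is given for IGFBP5 beyond its place above the median gene, which was 0.30 under either scaling.

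All 5 binding proteins with counts had treated libraries above untreated ones in normalized CPM, which 30.9% of all genes did, and IGFBP3 led them by a log2 fold change of 0.74 over IGFBP6. IGFBP1 (chromosome 7, 45927959 to 45933267, plus strand) lies next to IGFBP3 in the opposite orientation. It was listed with 0 counts in all 6 libraries. The floor, set at 3 counts per library, was 0.108 to 0.152 normalized CPM, and a level below it cannot be told from 0. No fold change can be given for it.

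**Figure D2:**
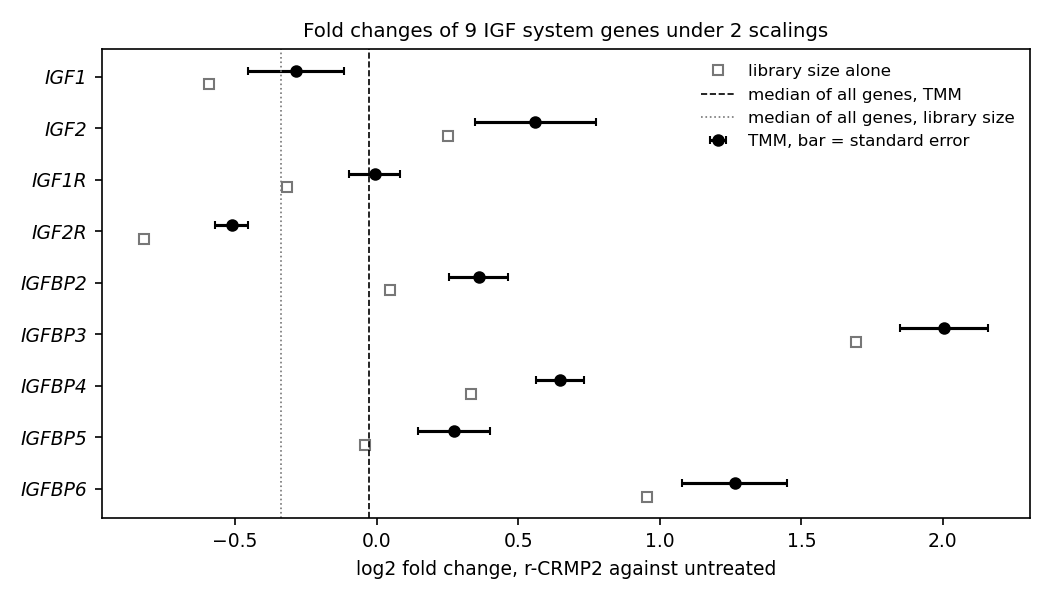
Filled points are log2 fold changes of r-CRMP2 against untreated libraries with TMM scaling and standard errors, open squares are the same with library size alone, and vertical lines mark the median of all genes under each scaling. Every gene moves left by about the same step with library size, so that IGFBP5 falls on the other side of 0 while IGFBP3 and IGFBP6 stay highest and IGF2R lowest.

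Summed over the family, IGFBP transcripts went from 852, 809.9 and 688 TPM in untreated libraries to 1961, 2199 and 2224 TPM with r-CRMP2. IGFBP3 took 78.3%, 75.7% and 73.7% of that sum in untreated libraries and 89.1%, 89.4% and 89.7% with r-CRMP2. This share is a ratio within each library and so does not depend on scaling, and the groups did not overlap. For each TPM of IGF1R there were 6.44 ± 1.06 TPM of IGFBP3 in untreated and 26.3 ± 5.39 in r-CRMP2 libraries (SD, n = 3 in each group).

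**Figure D3:**
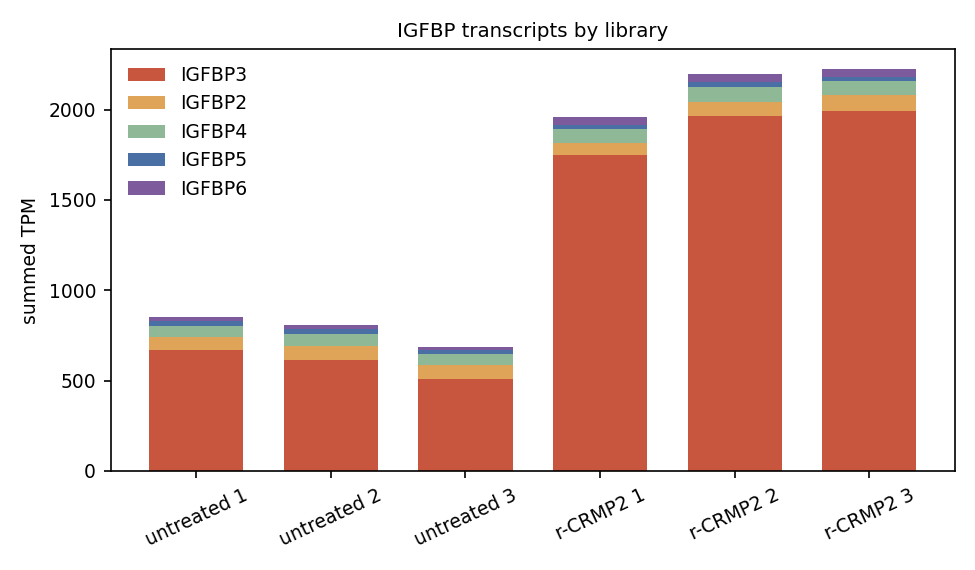
Bars stack the TPM of the 5 detected IGFBP genes in each of the 6 libraries, starting at 0. The sums are 688 to 852 TPM in untreated and 1961 to 2224 TPM in r-CRMP2 libraries, and IGFBP3 fills most of every bar.

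The promoter windows of the called binding proteins and of the receptor that fell are shown because the genes moved in opposite directions. They run from 250 bases before to 50 bases after the start of each gene, are read 5′ to 3′ on the gene's strand, and come from RefSeq on GRCh38.p14, a different build from the deposited positions. Of the 10 genes, 8 had such a window, and IGF2 and IGFBP1 did not. Capitals mark ACGTG or GCGTG on either strand, the core letters of the hypoxia response element bound by HIF-1, and ACGTG is also part of CACGTG, the E-box. The windows are chr7:45921223-45921522 (minus strand) for IGFBP3, chr12:53097417-53097716 (plus strand) for IGFBP6 and chr6:159968832-159969131 (plus strand) for IGF2R.
IGFBP3: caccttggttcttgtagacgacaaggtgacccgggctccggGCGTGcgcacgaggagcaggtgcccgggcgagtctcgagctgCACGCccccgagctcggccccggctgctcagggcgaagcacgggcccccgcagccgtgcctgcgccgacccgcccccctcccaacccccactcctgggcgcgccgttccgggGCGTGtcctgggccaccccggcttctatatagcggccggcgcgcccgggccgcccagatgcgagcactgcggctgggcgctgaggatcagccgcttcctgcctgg
IGFBP6: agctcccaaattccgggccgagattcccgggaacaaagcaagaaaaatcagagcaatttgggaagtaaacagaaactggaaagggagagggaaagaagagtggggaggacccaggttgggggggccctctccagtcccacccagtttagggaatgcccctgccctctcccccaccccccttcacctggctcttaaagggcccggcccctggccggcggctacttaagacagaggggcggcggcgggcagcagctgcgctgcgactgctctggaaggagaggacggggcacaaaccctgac
IGF2R: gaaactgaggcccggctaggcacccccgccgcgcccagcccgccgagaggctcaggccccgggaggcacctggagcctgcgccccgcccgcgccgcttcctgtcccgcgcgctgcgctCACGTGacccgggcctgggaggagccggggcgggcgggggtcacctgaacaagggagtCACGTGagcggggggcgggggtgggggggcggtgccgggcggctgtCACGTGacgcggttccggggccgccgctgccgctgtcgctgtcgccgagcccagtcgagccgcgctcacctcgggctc
The IGFBP3 window held 3 matches, all GCGTG, with first bases 209, 167 and 55 bases before the start. At least 1 match of either kind was in 48.4% of 35116 promoter windows of this length, and 3 or more were in 10.1%. The IGFBP6 window held none. The IGF2R window held CACGTG at 3 places, each read as ACGTG on both strands and so counted as 6 matches of ACGTG. In all, 33 windows (0.094%) held CACGTG 3 times or more, against 7.26% with at least 1. The motifs were added after the values were seen. The IGF1R window had 5 matches of ACGTG or GCGTG. The windows of IGFBP3, IGF2R and IGF1R were thus all among the 10.1% with 3 or more. These letters are a description of the windows, and no binding was measured.

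Beyond the 10 genes, 96 others of the pathway were read from 7 fixed lists, and 83 were tested. Of these, 7 were called upregulated and 2 downregulated, where 5.12% of all genes tested were called up and 8.86% down. Together this was 10.8%, beside 14.0% of all genes tested, and their median log2 fold change was 0.05, beside -0.03. At the adjusted p threshold alone 30 rose and 24 fell, together 65.1%, beside 58.2% of all genes. The share called either way was no higher than the background, and what follows describes single genes.

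Among 8 genes that set how much IGF is free, 6 were tested and 2 were called up, beside 5.12% of all genes tested. These were STC1 and STC2, the stanniocalcins, secreted inhibitors of the IGFBP protease PAPPA. At the adjusted p threshold alone 4 of the list rose and 1 fell, beside 28.2% and 30.1% of all genes. STC1 measured 310.4, 235 and 217 normalized CPM in untreated libraries and 782, 899 and 886 with r-CRMP2 (log2 fold change 1.75, SE 0.17, edgeR adjusted p = 3.84e-11). STC2 measured 105, 106 and 98.3 against 310.2, 339 and 362 (log2 fold change 1.71, SE 0.07, edgeR adjusted p = 4.08e-13). Both were called with library size alone as well. PAPPA itself measured 57.0, 54.8 and 56.6 against 48.2, 40.9 and 45.5 normalized CPM and fell by 0.32 on the log2 scale (edgeR adjusted p = 0.000809). There were 7.29, 6.23 and 5.58 STC1 and STC2 counts per PAPPA count in untreated libraries and 22.7, 30.2 and 27.4 with r-CRMP2. PAPPA and this ratio were singled out after their values were seen. ADAM12 and HTRA1 of the same list rose, by 0.69 and 0.43 on the log2 scale (edgeR adjusted p = 2.20e-05 and 5.04e-06). With library size alone ADAM12 still rose (0.38, edgeR adjusted p = 0.00700), and HTRA1 did not pass (0.12, edgeR adjusted p = 0.0745).

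Of the docking proteins that carry the signal from IGF1R and the insulin receptor, IRS1 fell and IRS2 rose. IRS1 measured 61.5, 56.4 and 56.1 normalized CPM in untreated libraries and 29.5, 19.97 and 27.0 with r-CRMP2 (log2 fold change -1.18, SE 0.18, edgeR adjusted p = 1.12e-08). IRS2 measured 82.8, 72.4 and 66.1 against 229, 212 and 262 (log2 fold change 1.67, SE 0.13, edgeR adjusted p = 9.59e-12). Neither gene's groups overlapped, and both were called with library size alone. The count of IRS2 per count of IRS1, which no scaling can change and which was computed after the values were seen, went from 1.35, 1.28 and 1.18 to 7.75, 10.6 and 9.72 and is a description with no test.

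Of the other genes in this list of receptor kin and adaptors, with 12 of 15 tested, GRB7, an adaptor that binds receptor tyrosine kinases, was called up (27.2 ± 0.994 to 71.1 ± 8.11 normalized CPM as mean ± SD over 3 libraries, log2 fold change 1.39, edgeR adjusted p = 6.80e-11). INSR, the insulin receptor, rose by 0.41 on the log2 scale (SE 0.03, edgeR adjusted p = 1.54e-05), but with library size alone it stood at 0.10 and did not pass. INSR stood at 16.3 ± 0.391 TPM in untreated and 17.3 ± 1.41 TPM in r-CRMP2 libraries, below IGF1R in each library.

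In the PI3K-AKT arm, which IRS proteins switch on, all 27 genes were tested, and the median log2 fold change was -0.16. At the adjusted p threshold alone 8 rose and 12 fell, beside 28.2% and 30.1% of all genes, and with library size alone 4 rose and 19 fell, beside 13.4% and 52.1%. FOXO3, a transcription factor that AKT keeps out of the nucleus, was the 1 gene called, from 39.7 ± 0.930 to 87.1 ± 6.80 normalized CPM (SD, n = 3 in each group, log2 fold change 1.13, SE 0.07, edgeR adjusted p = 1.31e-10). With library size alone it was 0.82, under the fold threshold, while PIK3CD (-1.15), PDPK1 (-1.07) and PHLPP2 (-1.16) were called down. These were 3 of the 27, beside 2553 of the 16222 genes tested, so no direction is given for the arm. In the RAS-MAPK arm all 12 genes were tested, and under TMM 4 rose and 3 fell, beside 28.2% and 30.1% of all genes. With library size alone 2 rose and 9 fell, beside 13.4% and 52.1%. Under TMM log2 fold changes lay between -0.84 and 0.58.

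The IGFBP-related proteins share the cysteine-rich amino-terminal domain of the family. CTGF (CCN2) measured 51.2, 65.9 and 88.7 normalized CPM in untreated libraries and 16.3, 14.1 and 13.7 with r-CRMP2 (log2 fold change -2.23, SE 0.24, edgeR adjusted p = 2.21e-10). WISP2 (CCN5) went the other way, from 269, 323 and 297 to 603, 694 and 636 (log2 fold change 1.12, SE 0.10, edgeR adjusted p = 2.59e-10), and was at 0.81 with library size alone. IGFBP7, a secreted protein that binds IGFs weakly, rose by 0.84 on the log2 scale (edgeR adjusted p = 1.97e-08) and was, at 293 ± 9.94 TPM in untreated and 417 ± 30.6 TPM in r-CRMP2 libraries, second to IGFBP3 among IGFBP1 to IGFBP7. IGFBPL1 had 2 counts in 1 library and none in the others.

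IGF2BP1, IGF2BP2 and IGF2BP3 bind IGF2 and other mRNAs. IGF2BP3 measured 46.5, 47.9 and 47.7 normalized CPM in untreated libraries and 28.1, 24.6 and 24.0 with r-CRMP2, with no overlap. It fell by 0.89 on the log2 scale (SE 0.07, edgeR adjusted p = 1.29e-08), and by 1.20 with library size alone, past the fold threshold. IGF2BP1 fell by 0.35 on the log2 scale (edgeR adjusted p = 0.000320). IGF2BP2 had a log2 fold change of 0.08 (edgeR adjusted p = 0.435), which turned to -0.23 with library size alone. IGF2-AS had between 0 and 2 counts per library.

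**Figure D4:**
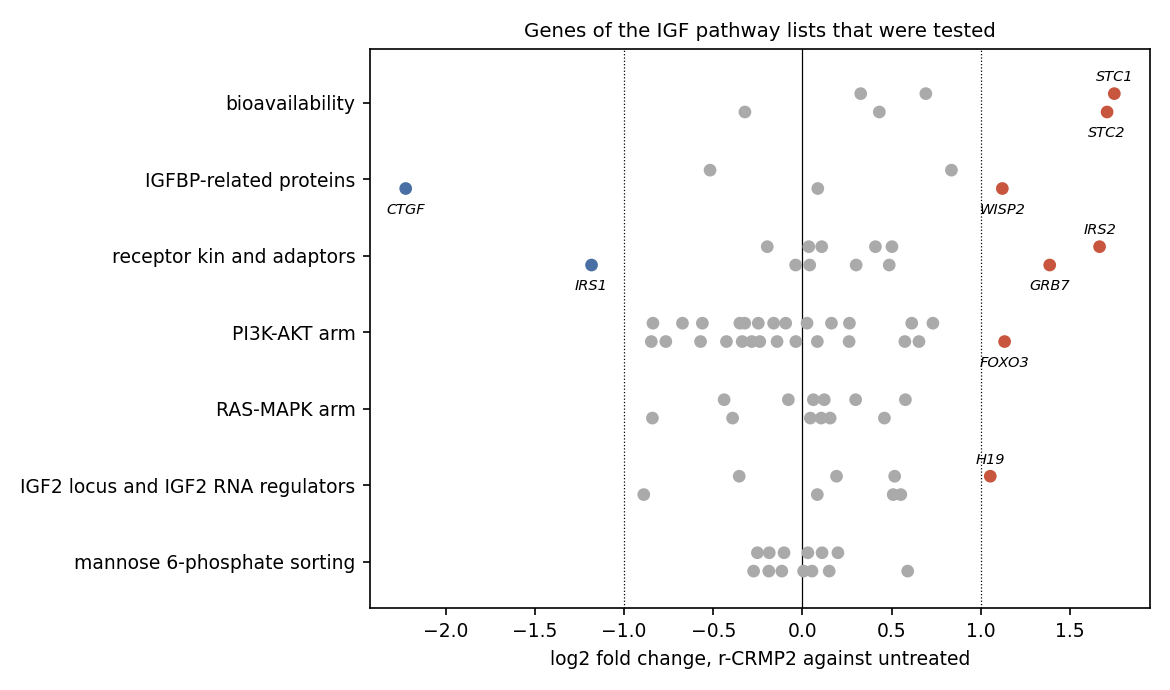
Points are the log2 fold changes of the 83 tested genes in 7 pathway lists, with genes called up in red, called down in blue and all others in grey, and dotted lines at the fold threshold of 1 in each direction. The 9 called genes carry their names, and most of the others lie between the dotted lines.

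A list of 20 well-known HIF-1 targets was set beside the IGF genes. It was chosen with earlier results of these data known. The paper had already named HK2, PFKFB3, PDK1, PGK1 and VEGFA from the same RNA sequencing. The counts below therefore describe the list and are no independent test of it. At the adjusted p threshold all 20 rose, beside 28.2% of all genes, and 16 were called, beside 5.12%, with a median log2 fold change of 1.42. Scaled to library size alone, all 20 rose and 11 were called, as CA12, EGLN3, P4HA1, KDM3A and ALDOC came under the fold threshold. The 16 were ADM, VEGFA, SLC2A1, HK2, PDK1, PFKFB3, CA9, CA12, ANKRD37, EGLN3, NDRG1, P4HA1, KDM3A, ALDOC, DDIT4 and ANGPTL4. IGFBP3, at 2.004, lay above the median of that list. The genes whose normalized log2 CPM across the 6 libraries, centred on their own means, lay nearest to IGFBP3 were MAFK, SLC2A1 and KRT17. Their distances were 0.093, 0.10 and 0.16 on the log2 scale, beside a median of 2.56 for all genes, and their log2 fold changes were 2.06, 2.02 and 1.94. As these genes were picked for the smallest distances, their closeness and like fold changes follow from that choice. Shared regulation was not tested.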

How the data were processed

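Polyadenylated RNA of 6 A2780 libraries (3 untreated, 3 r-CRMP2) was sequenced. For each library the authors deposited counts of reads per gene, without normalization, and TPM values, which recomputing from counts and gene lengths matched to within 4.72e-06. The submitters' processing notes name FastQC, HISAT2, DESeq2 and hg19. The counter, annotation and use of strand are not given in the sources used here.

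Counts were tested with edgeR 4.0.16 (limma 3.58.1, R 4.3.3): TMM scaling, edgeR's filter on low counts, the quasi-likelihood test and Benjamini-Hochberg adjustment over 16222 genes, with thresholds of 0.05 and a log2 fold change of 1. Standard errors come from the spread of log2 CPM between libraries, with a prior count of 2. The script was tested on simulated counts. Alternatives were DESeq2 1.42.0, other scalings, filters and thresholds, a replicate block and leaving out each library. Floors (3 counts) cover counting error only. The 10 genes and the lists were chosen with earlier results of these data known. List genes are named where called or where related to or overlapping an IGF gene. PAPPA, ADAM12, HTRA1, HOTS, IRAIN, the promoter motifs and the ratios between genes were added after their values were seen. The 3 nearest genes are by Euclidean distance.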

Additional observations from a re-analysis of the deposited data

How the results depend on the processing

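Over the edgeR and DESeq2 fits, 99 of 108 repeated member values stayed on their side of the adjusted p threshold with the same direction. With library size alone, IGF1 (-0.59) and IGF1R (-0.32) passed it, IGFBP2 (0.0477) no longer did, and IGFBP5 turned to -0.0405. IGF1R, at -0.01, changed sign with DESeq2 (0.0130) and RLE size factors (0.0130), without untreated replicate 2 (0.0135) and without r-CRMP2 replicate 2 (0.0813), and ranged from -0.0613 to 0.0813 over the fits that left out 1 library. IGFBP5 ranged from 0.16 to 0.36 over those fits and missed the threshold without untreated replicate 1 (0.23, edgeR adjusted p = 0.0505).

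The members called were 2 up and none down. They were 1 up with library size alone and when tested against a 2-fold change, and 5 up and 1 down without a fold threshold. The pathway genes called, 7 up and 2 down, became 4 and 7 with library size alone, 30 and 24 without a fold threshold, and 4 and 1 tested against a 2-fold change. All genes called, 831 up and 1437 down, became 489 and 2553 with library size alone (36.6% of calls up, then 16.1%), 4574 and 4875 without a fold threshold, 369 and 467 tested against a 2-fold change, and the falls became 946 with at least 10 counts in every sample. Leaving out 1 library gave 803 to 927 up and 1386 to 1621 down. The share of IGFBP3 in the binding protein sum with r-CRMP2, 89.4%, was 90.4% from CPM. IGF2BP2 and M6PR turned to -0.23 and -0.16 with library size alone. The fits for single pathway genes and the counts per list with library size alone were added after the data were seen. Apart from the scaling and threshold, which act by construction, the causes were not tested.

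Same-numbered libraries had correlations of their deviations of -0.02, 0.0038 and -0.03, so the numbers gave no pairing. A fit with replicate as a block called 819 genes up and 1437 down, 2 members up, and IGFBP3 and IGF2R had log2 fold changes of 2.01 and -0.51. M6PR missed the threshold under the block (edgeR adjusted p = 0.0800), and also without a filter on low counts, with at least 10 counts in every sample, and without untreated replicate 2 or 3 or r-CRMP2 replicate 3. INSR (0.10) and IRAIN (0.19) missed it with library size alone. Depth limits IGF1, IGF2 and IGFBP1.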

Other observations

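Untreated libraries differed among themselves in some of these genes. Untreated replicate 1 was the highest of the 3 untreated libraries for 17 of 20 HIF-1 targets, whereas 36.7% of all genes tested had their highest untreated value there. ANGPTL4 measured 164, 92.4 and 68.7 normalized CPM in untreated replicates 1, 2 and 3, and STC1, H19 and IGFBP3 also had their highest untreated value in replicate 1. Of the 5 binding proteins with counts, 2 had their highest untreated value there. So did 31 of the 83 pathway genes tested, a share near that of all genes. Leaving that library out gave IGFBP3 a log2 fold change of 2.11, the highest of the fits that left out 1 library. For ANGPTL4, STC1, H19 and IGFBP3 every treated library lay above every untreated one in normalized CPM, as for 30.9% of all genes tested.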
